A study of Rattus norvegicus with 4 samples.

Results

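Homer1, Arc and Nptx2 are activity-induced genes whose proteins act at excitatory synapses. They were taken as the rows of the deposited gene list that carry these symbols, which gave 3 of 30560 genes with 1 row each (Homer1, ENSRNOG00000047014; Arc, ENSRNOG00000043465; Nptx2, ENSRNOG00000001006). Their UMIs (unique molecular identifiers, each standing for 1 captured transcript) were counted in single nuclei of the nucleus accumbens of adult male and female Sprague-Dawley rats aged 90 to 120 days. Rats of the cocaine group received cocaine at 20 mg per kg in physiological saline, and rats of the saline group an equal volume of saline. Both were injected intraperitoneally once a day for 7 days and placed in an open field after injection, and brains were collected 1 hour after injection 7. Each of the 4 libraries (saline female, saline male, cocaine female and cocaine male), also called pools below, held nuclei pooled from 4 rats, so each group had 2 libraries, 1 of each sex, and the p-values below measure the spread between these pools and not between rats.

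All 3 genes are transcribed within minutes to hours of synaptic activity, and each adjusts the glutamate receptors of the synapse in its own way. Homer1 encodes a scaffold of the postsynaptic density that links metabotropic glutamate receptors to Shank proteins and intracellular calcium release, and its short, activity-induced form Homer1a lacks the coiled coil and uncouples those partners. Arc binds the endocytic machinery and promotes the removal of AMPA receptors, while Nptx2 (neuronal pentraxin 2, also known as Narp) is secreted and gathers AMPA receptors at the synapse surface. In the striatum Homer1a and Arc are known to be induced by psychostimulants in medium spiny neurons (MSN), the projection neurons, most of which carry either the D1 or the D2 dopamine receptor. The counts were made per gene, so Homer1a and the long Homer1 forms cannot be told apart here.

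RefSeq promoter sequence was matched for 2 of the 3 members. The 250 bases before each annotated start are shown because regulation by activity acts through short elements near the start: the cyclic AMP response element bound by CREB, the AP-1 site bound by Fos and Jun proteins, the EGR site and the CArG box bound by SRF. Both are written 5′ to 3′ on the gene's own strand, with motif letters in capitals. Homer1 lies on the plus strand at chr2:26278762-26279011 and Nptx2 on the minus strand at chr12:15162046-15162295, in build GRCr8, which is not the build of the counts.
Homer1: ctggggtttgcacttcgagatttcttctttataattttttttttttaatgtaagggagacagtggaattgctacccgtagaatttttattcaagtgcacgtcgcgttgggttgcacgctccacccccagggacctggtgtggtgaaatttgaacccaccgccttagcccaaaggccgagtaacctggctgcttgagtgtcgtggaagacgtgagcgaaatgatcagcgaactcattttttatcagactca
Nptx2: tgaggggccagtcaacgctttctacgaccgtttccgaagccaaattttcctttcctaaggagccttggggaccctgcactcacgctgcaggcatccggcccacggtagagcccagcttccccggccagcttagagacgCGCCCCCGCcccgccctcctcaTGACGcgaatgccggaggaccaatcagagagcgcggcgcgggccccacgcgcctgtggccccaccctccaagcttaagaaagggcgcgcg
The Nptx2 window held TGACG, the core letters of the cyclic AMP response element, from 90 to 86 bases before the start. It also held an EGR match (GCGNGGGCG, found on the opposite strand as CGCCCCCGC) from 112 to 104 bases before the start. None of the searched motifs was found in the Homer1 window. Both strands were searched, and the shares of all 33469 RefSeq promoter windows of the same length with a match were 18.2% for TGACG, 1.59% for the full element TGACGTCA (which contains TGACG), 6.34% for the AP-1 letters TGANTCA, and 4.29% for EGR. The CArG box was found in 501 of those windows. GC content was 46.4% in the Homer1 and 66.0% in the Nptx2 window, against a mean of 52.2% over all windows. These are letter matches and not measured binding.

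The libraries held 31484217 to 40737786 UMIs in 6213 to 7265 barcodes, with medians of 4363 to 5066 UMIs per nucleus. Of 26228 barcodes, 24843 were kept, and 10 to 18 barcodes were shared by any pair of libraries (0.157% to 0.282% of the smaller library). Kept nuclei formed 21 clusters, which were given 13 class names from marker genes ("-like" below), except 4 clusters with 771 nuclei that stayed unnamed. D1-MSN-like nuclei had 105 Drd1 and 5.01 Drd2 CPM (UMIs scaled by the class total of the libraries), D2-MSN-like nuclei 2.84 and 790.6, and eccentric MSN-like nuclei (a minor MSN type) 1406 CPM of Grm8. Nuclei of the saline female library were the deepest among neurons, with a median of 9849 UMIs in D1-MSN-like nuclei against 6662 to 7832.5 in the other libraries. Pvalb was not matched in the gene list, so the Pvalb/Pthlh interneuron-like class rests on its other markers.

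Homer1 gave by far the most UMIs of the 3 genes and was highest in neurons of the projection type. Levels are given as CPM, the gene's UMIs relative to all UMIs of the class in a library, and were not scaled by length. Whether intronic reads were counted is not given, so the UMIs of different genes need not rank their transcripts. With saline, D1-MSN-like nuclei stood at 602.8 ± 23.1 CPM (SD, n = 2) and D2-MSN-like nuclei at 579.8 ± 41.0 CPM (SD, n = 2). Glutamatergic-like nuclei had 538 CPM in the saline female library, from 30 nuclei, and 1081 CPM in the saline male library, from 49 nuclei. The ranges of these 3 classes overlapped, so no order among them could be read. Eccentric MSN-like nuclei followed at 446 ± 72.3 CPM (SD, n = 2), below both D1- and D2-MSN-like nuclei in each saline library.

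Other neurons had less Homer1. With saline, Pvalb/Pthlh interneuron-like nuclei stood at 200.5 ± 27.9 CPM, other GABAergic-like nuclei (led by Klhl1 and Htr7) at 182.9 ± 6.56 CPM, and Sst interneuron-like nuclei at 137.6 ± 10.6 CPM (SD, n = 2 each). The first 2 of these overlapped. Oligodendrocyte precursor-like nuclei lay at 157.4 ± 5.77 CPM, astrocyte-like nuclei at 83.3 ± 8.04 CPM, microglia-like nuclei at 68.5 ± 5.86 CPM and oligodendrocyte-like nuclei at 58.6 ± 5.16 CPM (SD, n = 2 each). How much of the glial level is free RNA in the droplets was not tested. Vascular-like and cholinergic-like nuclei had fewer than 25 nuclei in at least 1 library, gave 18 and 63 Homer1 UMIs in all, and were not tested.

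**Figure D1:**
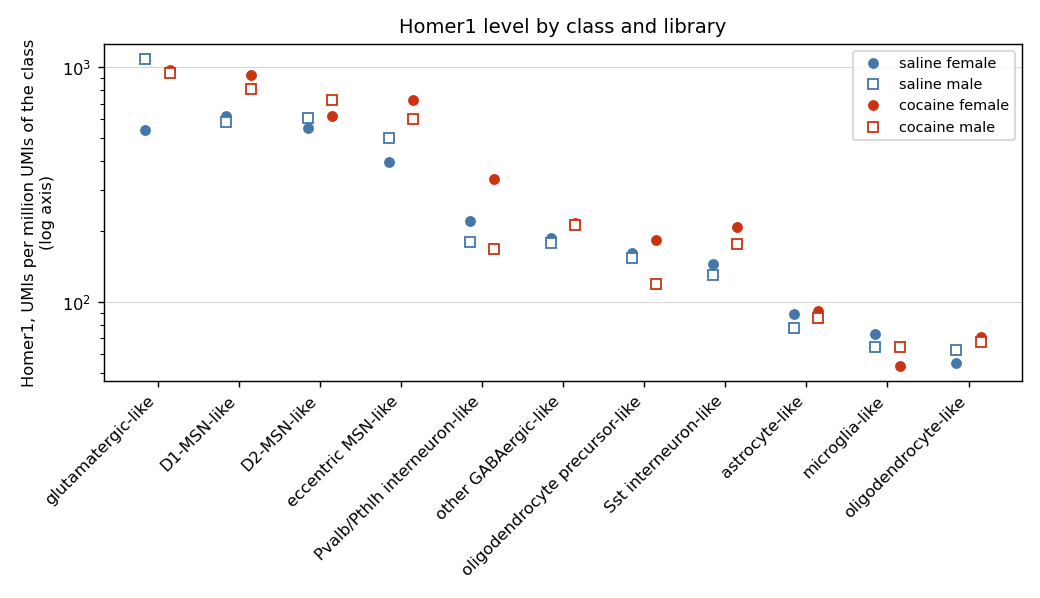
Homer1 level (CPM of the class, log axis) in 11 classes, with 1 point per library, blue for saline, red for cocaine, circles for female and squares for male pools. Both cocaine points lie above both saline points in D1-MSN-like nuclei (930 and 808 against 619 and 587 CPM), and in D2-MSN-like nuclei they do so by less (619 and 727 against 551 and 609 CPM).

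After cocaine Homer1 rose in D1-MSN-like nuclei. It stood at 619 CPM in the saline female and 587 CPM in the saline male library (5400 and 6268 UMIs). It stood at 930 CPM in the cocaine female and 808 CPM in the cocaine male library (10635 and 7956 UMIs). Both cocaine libraries lay above both saline libraries, and the cocaine mean was 1.44 times the saline mean. With edgeR's quasi-likelihood test, sex as a covariate and Benjamini-Hochberg adjustment over 13277 genes, the log2 fold change was 0.50 ± 0.07 (SE) with an adjusted p of 0.0105. Homer1 was thus 1 of 28 genes called higher in this class, where 0.211% of genes tested were called higher and 0.264% in either direction. The call was kept with DESeq2 (adjusted p = 0.0264), with each nucleus thinned to 2000 UMIs (2.4e-05) and with nuclei gated by their own marker UMIs in place of clusters (log2 fold change 0.70, adjusted p = 7.0e-04). It was lost without the sex covariate (adjusted p = 0.54), without the cocaine female library (log2 fold change 0.38, adjusted p = 0.99) and without the cocaine male library (0.62, adjusted p = 0.42). The fits without a library carry no sex covariate, and the lone library of a group is assumed to vary like the other group.

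Homer1 was called higher in both clusters that make up the D1-MSN-like class. Cluster 2, led by Ebf1, Reln and Pdyn (3070 nuclei), had 670 and 659 CPM in the female and male saline pools and 1078 and 902 CPM in the cocaine libraries. Its log2 fold change was 0.54 ± 0.07 (SE) with an edgeR adjusted p of 7.3e-11, in a fit whose prior degrees of freedom were infinite, so that all genes share 1 trend of variance. That fit called 2.13% of 12419 genes. Cluster 5, led by Htr4, with Nts and Drd3 among its leading genes (1874 nuclei), had 482 and 502 CPM with saline and 725 and 645 CPM with cocaine. Its log2 fold change was 0.47 ± 0.10 (SE) with an edgeR adjusted p of 0.00596, where 0.836% of 11966 genes were called. The call of cluster 2 was lost in 2 of the alternative fits, among them the one without the cocaine female library (0.38). That of cluster 5 was lost in 5 of them. These include the fits without the saline female library (0.43), without either cocaine library (0.38 for the female and 0.56 for the male left out) and with DESeq2 (adjusted p = 1.0). The cocaine effect on Homer1 in cluster 5 minus that in cluster 2 was -0.06 ± 0.10 on the log2 scale (edgeR adjusted p = 1.0, 0.000% of genes called), so no difference was shown.

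In D2-MSN-like nuclei Homer1 did not pass the test. It stood at 551 and 609 CPM in the female and male saline pools and at 619 and 727 CPM in the cocaine libraries. Both cocaine libraries lay above both saline libraries in CPM, the female one only just. On the TMM-scaled values of the fit, the saline male library (620 CPM) lay above the cocaine female library (615 CPM). Within each sex the cocaine library was the higher, by 0.17 in females and 0.26 in males on the log2 scale. The log2 fold change of 0.17 ± 0.07 (SE) did not pass (edgeR adjusted p = 0.348), in a class where 0.798% of 12534 genes were called. The difference itself was tested with library as a block: the effect in D2-MSN-like minus that in D1-MSN-like nuclei was -0.34 ± 0.09 (SE) on the log2 scale (edgeR adjusted p = 0.349, 0.0379% of genes called). Without the saline female or the cocaine male library the difference was -0.46 and -0.56. Without the cocaine female library it was -0.12, so its size depends on that library. Each of these fits leaves 1 library in a group, so only the sizes are given. Set against D1-MSN-like nuclei in the same way, the effect differed by 0.04 ± 0.12 (SE) in eccentric MSN-like, -0.25 ± 0.34 in glutamatergic-like, -0.31 ± 0.13 in other GABAergic-like and -0.42 ± 0.20 in astrocyte-like nuclei, none past the threshold (edgeR adjusted p = 0.99 or above). These 4 fits called 0.000%, 0.000%, 0.000% and 0.00719% of genes.

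Eccentric MSN-like nuclei and cluster 12 also had more Homer1 after cocaine. Eccentric MSN-like nuclei (1960 nuclei) had 395 and 497 CPM in the female and male saline pools and 727 and 600 CPM in the cocaine libraries, with no overlap. The log2 fold change was 0.56 ± 0.12 (SE) with an edgeR adjusted p of 0.0481, where 0.244% of 11496 genes were called. This call lies at the threshold: it was lost with RLE size factors (adjusted p = 0.068), with each nucleus thinned (0.11), with doublets kept (0.11), without the sex covariate (0.38) and without the cocaine female library (0.86). A single nucleus of the cocaine male library held 212 of its class's 1601 Homer1 UMIs. Cluster 12 (360 nuclei led by Itga11, Casz1 and Crhr1), which carries D2-MSN markers but was left unnamed, had 602 and 534 CPM with saline and 783 and 887 CPM with cocaine. Its log2 fold change was 0.54 ± 0.11 (SE) with an edgeR adjusted p of 0.0201, where 0.220% of 8193 genes were called, and DESeq2 did not call it (adjusted p = 1.0). It was lost without the saline male library (adjusted p = 0.14) and without the cocaine male library (0.56).

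The remaining classes did not pass for Homer1. Estimates were 0.44 ± 0.20 (SE) in Sst interneuron-like (edgeR adjusted p = 0.69), 0.27 ± 0.15 in Pvalb/Pthlh interneuron-like (0.52), 0.19 ± 0.12 in other GABAergic-like (0.94) and 0.24 ± 0.38 in glutamatergic-like nuclei (1.0) on the log2 scale. In glia they were 0.20 ± 0.13 in oligodendrocyte-like (edgeR adjusted p = 0.60), 0.07 ± 0.15 in astrocyte-like (0.96), -0.07 ± 0.16 in oligodendrocyte precursor-like (0.99) and -0.29 ± 0.36 in microglia-like nuclei (0.91). Homer1 in Pvalb/Pthlh interneuron-like nuclei had opposite signs in the 2 sexes, 220 against 333 CPM in females and 181 against 168 CPM in males. The fits of Pvalb/Pthlh interneuron-like, oligodendrocyte-like, astrocyte-like, microglia-like and oligodendrocyte precursor-like nuclei called 1.97%, 1.47%, 1.28%, 0.127% and 0.0352% of genes. No gene was called in the Sst interneuron-like, other GABAergic-like or glutamatergic-like fits (0.000% each), where 437, 486 and 221 genes had an unadjusted p under 0.05.

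Markers of excitatory neurons stayed low in D1-MSN-like nuclei of both groups. Glutamatergic-like nuclei made up 0.496% and 0.830% of kept nuclei in the female and male saline pools but 3.70% and 1.95% in the cocaine libraries. In D1-MSN-like nuclei the 5 glutamatergic markers summed to 1.88 to 2.64 CPM with saline and 2.28 to 2.65 CPM with cocaine. Whether RNA of glutamatergic-like nuclei had a part in the Homer1 level of D1-MSN-like nuclei was not tested. D1-MSN markers there summed to 783 to 786 CPM with saline and 780 to 929 CPM with cocaine, and D2-MSN markers to 16.5 to 31.3 and 26.0 to 54.1 CPM, whose part in the result was not tested. Over all kept nuclei the log2 fold change of Homer1 was 0.57 ± 0.10 (SE, edgeR adjusted p = 0.123, 0.0484% of 16524 genes called). Without the glutamatergic-like class, a choice made after the data were seen, it was 0.54 ± 0.08 and passed (adjusted p = 0.00267, 2.60% of genes called). That call was lost in 5 of the alternative fits. These include the fits without the saline female library (0.38), without either cocaine library (0.53 each) and with no filter on low counts (0.54, adjusted p = 0.57).

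**Figure D2:**
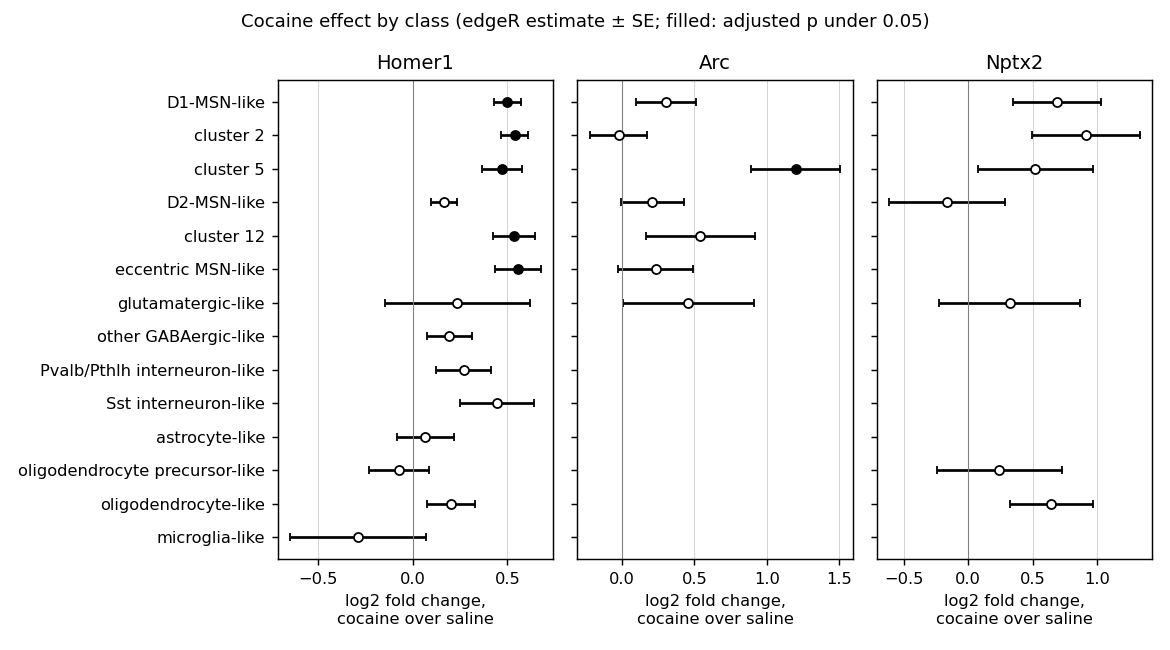
Log2 fold change, cocaine over saline, of Homer1, Arc and Nptx2 in each tested class and cluster (edgeR estimate, bars ± SE, filled points with an adjusted p under 0.05). Homer1 estimates are filled in D1-MSN-like nuclei, clusters 2, 5 and 12 and eccentric MSN-like nuclei, Arc is filled in cluster 5, and no Nptx2 estimate is filled; classes where a gene had too few UMIs have no point.

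D1-MSN-like nuclei with many Homer1 UMIs made up a larger share in the cocaine libraries. To compare nuclei at 1 depth, each was thinned to 2000 UMIs, and shallower nuclei (11 to 34 D1-MSN-like nuclei per library) were left out. The median was 1 Homer1 UMI in every library. Nuclei with at least 5 Homer1 UMIs made up 3.82% (95% exact interval 2.63% to 5.35%) in the saline female and 2.74% (1.94% to 3.76%) in the saline male library. They made up 7.57% (6.22% to 9.10%) in the cocaine female and 5.90% (4.69% to 7.30%) in the cocaine male library, so the intervals of the 2 groups overlapped only for saline females against cocaine males. These intervals cover counting error only. Before thinning, when most D1-MSN-like nuclei had several UMIs, the same limit gave 46.5% and 34.1% with saline and 44.4% and 36.9% with cocaine, which do not separate the groups. The median depths of these libraries before thinning ran from 6662 to 9849 UMIs.

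At a limit of 10 UMIs the groups lay further apart. Such nuclei made up 0.955% and 0.222% with saline and 3.31% and 2.65% with cocaine in the female and male libraries. The 99th percentile was 9 and 7 UMIs with saline and 19 and 13.8 UMIs with cocaine. Nuclei with at least 5 UMIs held 24.2% and 17.0% of all thinned Homer1 UMIs of the class with saline and 46.3% and 38.6% with cocaine. Over all thinned nuclei of the class the mean was 1.22 and 1.13 UMIs with saline and 1.76 and 1.55 UMIs with cocaine. The share of nuclei with at least 1 Homer1 UMI moved little, from 60.5% and 59.5% to 63.1% and 62.7% after thinning (94.0%, 92.4%, 93.0% and 89.3% before). Oligodendrocyte-like nuclei had medians of 1528 to 2011 UMIs before thinning. Only 341 to 1028 of their 1356 to 2019 nuclei per library were deep enough to be thinned. Among these deeper nuclei the share with a Homer1 UMI was 10.2% to 14.1% and no nucleus had 5 UMIs.

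**Figure D3:**
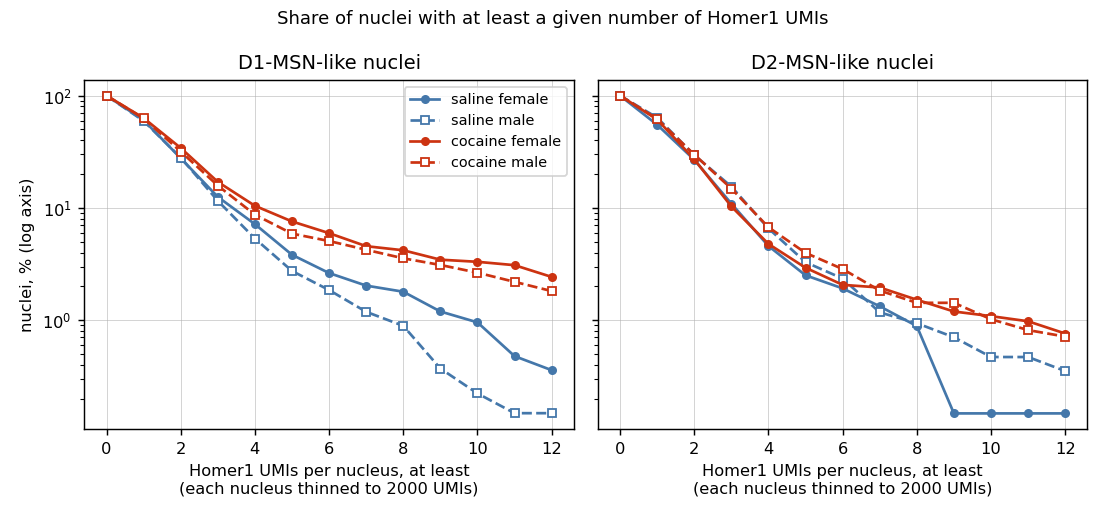
Share of nuclei (%, log axis) with at least a given number of Homer1 UMIs, each nucleus thinned to 2000 UMIs, with 1 line per library. In D1-MSN-like nuclei (left) the cocaine lines leave the saline lines from about 5 UMIs on, at 7.57% and 5.90% against 3.82% and 2.74%; in D2-MSN-like nuclei (right) the lines lie at 2.93% and 3.97% against 2.51% and 3.28% there.

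In D2-MSN-like nuclei the groups overlapped at the limit of 5. Nuclei with at least 5 UMIs made up 2.51% and 3.28% with saline and 2.93% and 3.97% with cocaine. At a limit of 10 they made up 0.147% and 0.469% against 1.08% and 1.02%, from 1 and 4 against 10 nuclei in each cocaine library. Eccentric MSN-like nuclei had 1.60% and 2.87% with saline and 4.73% and 4.23% with cocaine at the limit of 5. Among D1-MSN-like nuclei, cluster 2 went from 4.61% and 3.22% to 9.09% and 7.11%, and cluster 5 from 1.74% and 2.15% to 5.30% and 3.43%. In each of these 3 sets both cocaine libraries lay above both saline libraries. None of these shares was tested, since nuclei are not replicates.

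Nuclei with UMIs of immediate-early transcription factors had more Homer1 UMIs on average. The UMIs of 18 such genes (the Fos, Jun, Egr and Nr4a families, Npas4 and others) were summed in each thinned nucleus. In D1-MSN-like nuclei with none, Homer1 averaged 1.07 and 1.03 UMIs in the female and male saline pools and 1.21 and 1.17 in the cocaine libraries. In nuclei with 3 or more, it averaged 4.13 and 3.26 with saline and 10.1 and 8.10 with cocaine. Such nuclei numbered 30 and 23 with saline and 61 in each cocaine library, 3.58%, 1.70%, 4.48% and 4.61% of the class. Homer1 was thus higher in these nuclei within every library, and higher with cocaine than with saline among nuclei with 3 or more immediate-early UMIs. That set has no upper limit, and the listed factors Nr4a3 and Fosl2 were themselves called higher with cocaine in this class. Whether its nuclei held equal immediate-early UMIs in each library was not tested. D2-MSN-like nuclei with 3 or more averaged 2.93 and 4.00 Homer1 UMIs with saline and 5.10 and 5.35 with cocaine, against 0.903 to 1.10 in nuclei with none. In eccentric MSN-like nuclei the averages with 3 or more were 2.88 and 2.50 with saline and 8.19 and 5.56 with cocaine, from 14 to 26 nuclei per library.

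**Figure D4:**
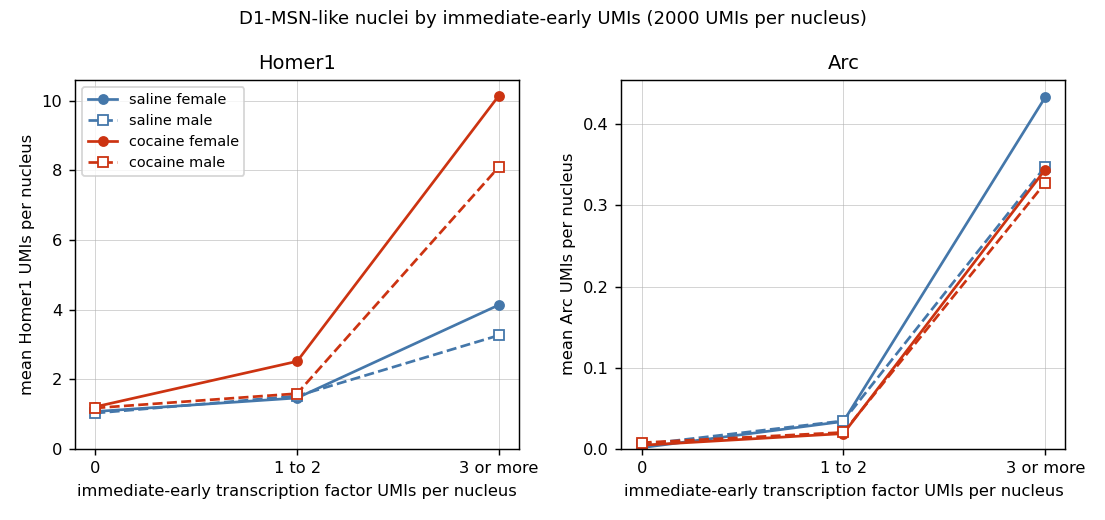
Mean Homer1 (left) and Arc (right) UMIs per D1-MSN-like nucleus, thinned to 2000 UMIs, by the nucleus's summed UMIs of immediate-early transcription factors, with 1 line per library. Homer1 reaches 10.1 and 8.10 UMIs in the cocaine libraries and 4.13 and 3.26 in the saline libraries at 3 or more, whereas Arc lies between 0.328 and 0.433 in all 4.

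Arc gave few UMIs and was found mainly in glutamatergic-like and MSN-like nuclei. With saline it stood at 24.9 ± 8.61 CPM in glutamatergic-like and 11.8 ± 1.80 CPM in eccentric MSN-like nuclei (SD, n = 2 each). D1-MSN-like nuclei stood at 9.48 ± 3.62 CPM and D2-MSN-like nuclei at 8.61 ± 0.62 CPM (SD, n = 2 each). The 2 glutamatergic-like saline libraries lay above those of the other named classes, and the 3 MSN classes overlapped, except eccentric MSN-like against D2-MSN-like nuclei. The unnamed cluster 12 had 33.4 CPM in the saline female and 9.14 CPM in the saline male library, from 24 and 7 UMIs. Its log2 fold change with cocaine was 0.54 ± 0.38 (SE, edgeR adjusted p = 0.85). Other GABAergic-like nuclei had 1.51 ± 0.02 CPM (SD, n = 2), from 11 and 4 UMIs. Astrocyte-like and oligodendrocyte-like nuclei had 0.387 to 0.712 CPM with saline, from 1 to 3 UMIs per library. Pvalb/Pthlh and Sst interneuron-like, microglia-like and oligodendrocyte precursor-like nuclei gave 1 or 2 Arc UMIs each over all libraries.

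In the MSN classes Arc did not pass the test between cocaine and saline. D1-MSN-like nuclei had 12.0 and 6.92 CPM in the female and male saline pools and 11.3 and 12.1 CPM in the cocaine libraries (105, 74, 129 and 119 UMIs). The saline female library lay among the cocaine libraries, and the log2 fold change was 0.30 ± 0.20 (SE, edgeR adjusted p = 0.708). D2-MSN-like nuclei had 9.06 and 8.17 CPM with saline and 10.1 and 10.5 CPM with cocaine. Their log2 fold change was 0.21 ± 0.22 (SE, edgeR adjusted p = 0.828) and turned to -0.53 with thinned nuclei. The effect in D2-MSN-like minus that in D1-MSN-like nuclei was -0.08 ± 0.24 on the log2 scale (adjusted p = 0.98). Eccentric MSN-like nuclei gave 0.23 ± 0.26 (edgeR adjusted p = 0.88), which was -0.33 with thinned nuclei. After thinning, 1.55% and 1.19% of D1-MSN-like nuclei had an Arc UMI with saline and 1.62% and 1.81% with cocaine. Of the oligodendrocyte-like nuclei deep enough to be thinned, 0% to 0.638% had one. Before thinning the D1-MSN-like shares were 4.71%, 2.94%, 5.09% and 5.01%.

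Cluster 5 of the D1-MSN-like class was the exception for Arc. It had 6.80 and 4.86 CPM with saline and 8.59 and 16.7 CPM with cocaine, from 16, 24, 41 and 60 UMIs. The log2 fold change was 1.20 ± 0.31 (SE) with an edgeR adjusted p of 0.0273. The call was lost with RLE size factors (adjusted p = 0.053), with DESeq2 (1.0), without the sex covariate (0.99) and with any 1 library left out (0.23 to 1.0). Most of the gap came from the male libraries, with log2 ratios of 0.30 in females and 1.76 in males. Cluster 2 had 14.0 and 8.69 CPM with saline and 13.3 and 9.45 CPM with cocaine, with an estimate of -0.02 ± 0.20 (SE, edgeR adjusted p = 0.99). The effect in cluster 5 minus that in cluster 2 was 1.05 ± 0.44 (SE) on the log2 scale and did not pass (edgeR adjusted p = 1.0).

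Within the D1-MSN-like class, most Arc UMIs lay in nuclei with immediate-early UMIs. D1-MSN-like nuclei with no such UMI averaged 0.001 to 0.008 Arc UMIs, and nuclei with 3 or more averaged 0.433 and 0.348 with saline and 0.344 and 0.328 with cocaine. The Arc averages of the saline and cocaine libraries thus lay close in nuclei with 3 or more, whereas Homer1 was higher with cocaine. Such nuclei numbered only 30 and 23 with saline and held few Arc UMIs. No test was made, so a difference in Arc could be missed, and the immediate-early UMIs within this set were not matched between libraries. Nuclei with an Arc UMI (13 to 24 per library) averaged 5.31 and 3.31 Homer1 UMIs with saline and 10.7 and 3.58 with cocaine, against 1.16, 1.10, 1.61 and 1.52 in nuclei with none.

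In glutamatergic-like nuclei Arc stood at 31.0 and 18.8 CPM with saline and 24.8 and 50.9 CPM with cocaine, from 13, 10, 67 and 55 UMIs. The estimate was 0.46 ± 0.45 (SE, edgeR adjusted p = 1.0), and the sexes went opposite ways. These nuclei held 4.94% and 5.43% of the library's Arc UMIs with saline and 18.3% and 17.7% with cocaine, and their share of nuclei was also higher with cocaine. Over all nuclei Arc's log2 fold change was 0.64 ± 0.13 (SE, edgeR adjusted p = 0.15), and 0.50 ± 0.14 without the glutamatergic-like class (adjusted p = 0.076). Fewer nuclei of a type and less RNA per nucleus cannot be told apart in a sum over all nuclei.

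**Figure D5:**
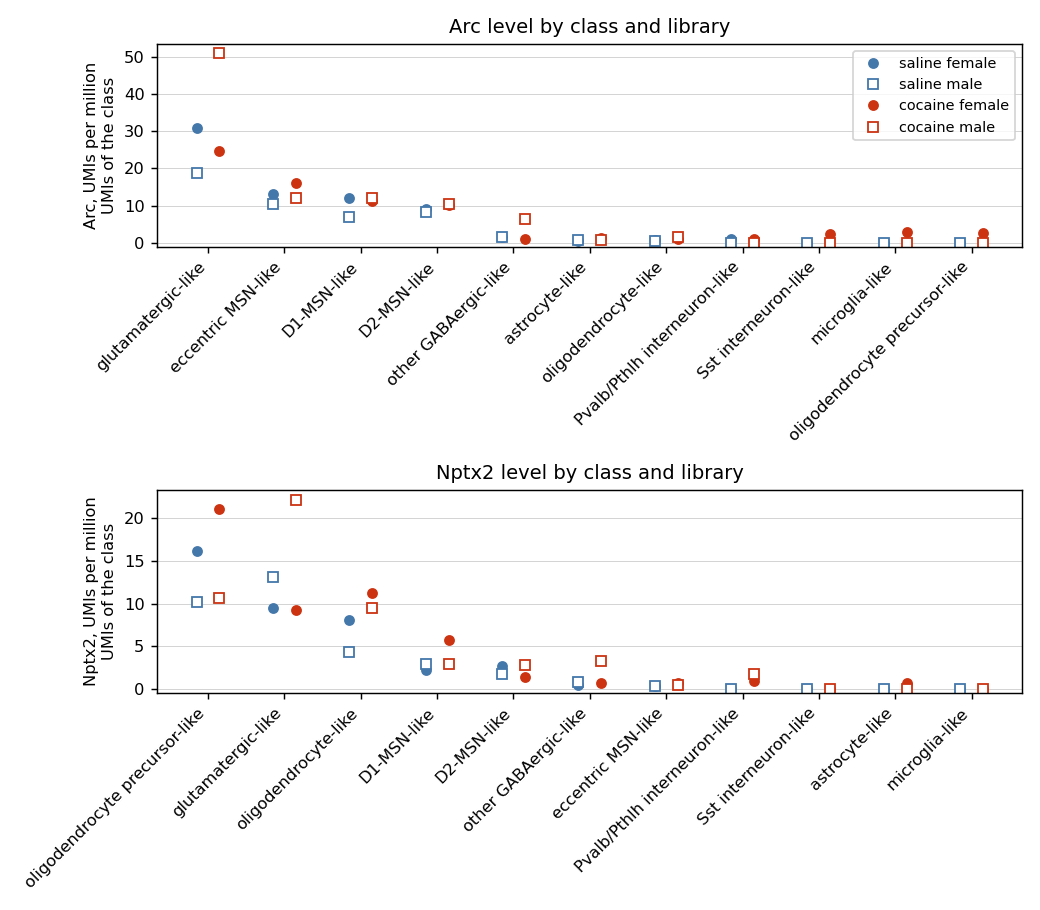
Arc (top) and Nptx2 (bottom) levels (CPM of the class) in 11 classes, with 1 point per library, blue for saline, red for cocaine, circles for female and squares for male pools. Arc lies highest in glutamatergic-like nuclei (18.8 to 50.9 CPM), and Nptx2 in oligodendrocyte precursor-like and glutamatergic-like nuclei (9.26 to 22.2 CPM).

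Nptx2 gave the fewest UMIs of the 3, and its highest levels were outside the MSN. Oligodendrocyte precursor-like nuclei had 16.2 and 10.1 CPM in the female and male saline pools, from 16 and 7 UMIs, and glutamatergic-like nuclei 9.53 and 13.2 CPM, from 4 and 7 UMIs. Their ranges overlapped. Oligodendrocyte-like nuclei followed at 8.05 and 4.26 CPM (36 and 11 UMIs). D1-MSN-like nuclei had 2.18 and 2.90 CPM and D2-MSN-like nuclei 2.63 and 1.73 CPM, below the oligodendrocyte-like nuclei in both saline libraries. Eccentric MSN-like nuclei had 5 Nptx2 UMIs in all, and Sst interneuron-like, microglia-like and cluster 12 nuclei had none. For the Sst interneuron-like nuclei that allows a share of nuclei with a UMI of up to 4.17% to 7.69% per library, and for the microglia-like nuclei of up to 1.28% to 1.99%.

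Nptx2 and Homer1 were ordered differently in astrocyte-like and oligodendrocyte-like nuclei. How much of these levels is free RNA in the droplets was not tested. Astrocyte-like nuclei, which lay at 83.3 CPM of Homer1 with saline against 58.6 CPM in oligodendrocyte-like nuclei, gave 1 Nptx2 UMI over all libraries, against 112 UMIs in oligodendrocyte-like nuclei. Thinning left only the deeper nuclei, 341 to 1028 of 1356 to 2019 oligodendrocyte-like and 333 to 450 of 451 to 473 astrocyte-like nuclei per library. Of these, 0.737% to 2.35% of oligodendrocyte-like and 0% of astrocyte-like nuclei had an Nptx2 UMI. Astrocyte-like nuclei had medians of 2586 to 3439 UMIs before thinning. In D1-MSN-like nuclei the share was 0.477% and 0.519% with saline and 1.18% and 0.529% with cocaine. Oligodendrocyte-like nuclei held 36 of the 98 Nptx2 UMIs of the saline female and 11 of the 71 of the saline male library, and 41 of 164 and 24 of 110 with cocaine.

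No class passed for Nptx2 between cocaine and saline. In D1-MSN-like nuclei it went from 2.18 and 2.90 CPM to 5.68 and 2.95 CPM (19, 31, 65 and 29 UMIs), so only the cocaine female library stood apart. The log2 fold change was 0.69 ± 0.34 (SE, edgeR adjusted p = 0.579). Cluster 2 gave 0.91 ± 0.42 (adjusted p = 0.34), with log2 ratios of 0.92 in each sex. Oligodendrocyte-like nuclei went from 8.05 and 4.26 CPM to 11.2 and 9.42 CPM. The estimate there was 0.64 ± 0.32 (SE, edgeR adjusted p = 0.45) in a fit that called 1.47% of genes. D2-MSN-like nuclei gave -0.16 ± 0.45 (adjusted p = 0.95), and the effect there minus that in D1-MSN-like nuclei was -0.90 ± 0.57 (SE, adjusted p = 0.84). Over all nuclei the estimate was 0.72 ± 0.18 (SE, edgeR adjusted p = 0.20), with 98 and 71 UMIs in the saline and 164 and 110 in the cocaine libraries. At these counts changes as small as the standard errors were not detectable.

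The binding partners of the 3 proteins were not called in the MSN classes, where few genes were called at all. Over all genes tested 0.264% (D1-MSN-like), 0.798% (D2-MSN-like) and 0.244% (eccentric MSN-like) were called in either direction. At these shares, no call in lists this short tells little about the partners. Of 12 Homer scaffold partners (receptors such as Grm5 and scaffolds such as Shank3 and Dlg4), 12 were tested in D1-MSN-like nuclei and 0 were called, with 3 higher and a median log2 fold change of -0.05. In D2-MSN-like nuclei 0 of 11 were called, none was higher and the median was -0.12. Over all genes tested the medians were 0.000 (D1-MSN-like), -0.001 (D2-MSN-like) and 0.004 (eccentric MSN-like). The shares of all genes that were higher were 50.0%, 49.6% and 50.9% in the same order. In eccentric MSN-like nuclei 0 of 11 were called (median -0.02). Homer2, a paralog of Homer1, had the largest change of the list in D1-MSN-like nuclei at 0.41 ± 0.38 (SE, edgeR adjusted p = 0.80), from 13 to 22 UMIs. The largest changes in the other classes were Homer3 in D2-MSN-like (-0.40 ± 0.51, from 8 to 15 UMIs) and Homer2 in eccentric MSN-like nuclei (0.32 ± 0.24), neither past the threshold. Cluster 12 gave 1 of 10 partners higher and none called.

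Partners of Nptx2 and Arc also gave no calls in the D1-MSN-like, D2-MSN-like and eccentric MSN-like fits, where 0.264%, 0.798% and 0.244% of all genes were called. Of the pentraxin and AMPA receptor list (Nptx1, the receptor Nptxr, the Gria subunits and Cacng auxiliary subunits), 0 of 9 were called in each of the D1-MSN-like, D2-MSN-like and eccentric MSN-like fits, with medians of 0.01, -0.07 and -0.06. Nptxr, the transmembrane pentraxin, stood at -0.41 ± 0.18 (SE, edgeR adjusted p = 0.54) in D1-MSN-like nuclei. Of 12 Arc partners and AMPA receptor endocytosis genes, 0 were called in these 3 classes (medians -0.02, -0.04 and -0.05). Ube3a, a ubiquitin ligase, had the largest change of that list in D1-MSN-like nuclei, 0.26 ± 0.07 (SE, edgeR adjusted p = 0.24). The largest changes of these lists elsewhere did not pass either: Nptx1 (0.48) and Ube3a (0.20) in D2-MSN-like, Nptxr (-0.43) and the adaptor subunit gene Ap2m1 (0.40) in eccentric MSN-like nuclei. In cluster 2, with 2.13% of genes called, 1 of 8 tested pentraxin genes was called lower, and among Arc partners 1 was called higher and 1 lower.

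Other activity-induced effectors were called higher in the same classes as Homer1 and in D2-MSN-like nuclei. Of 13 tested in D1-MSN-like nuclei, 12 were higher and 2 were called, where 50.0% of all genes were higher and 0.211% were called higher. The 2 were Pcsk1, a proprotein convertase, and Scg2, a granin of dense-core vesicles. Pcsk1 had 105 and 96 UMIs in the female and male saline pools and 308 and 249 in the cocaine libraries, a log2 fold change of 1.30 ± 0.14 (SE, edgeR adjusted p = 0.00147). Scg2 had 650 and 844 UMIs with saline and 1271 and 1190 with cocaine, a log2 fold change of 0.57 ± 0.08 (SE, edgeR adjusted p = 0.00853). The list's medians were 0.43 (D1-MSN-like), 0.13 (D2-MSN-like) and 0.40 (eccentric MSN-like). The same 2 genes were called in D2-MSN-like nuclei (Pcsk1 0.85, Scg2 0.35), where 0.463% of genes were called higher, and in eccentric MSN-like nuclei (Pcsk1 2.38, Scg2 0.76), where 0.174% were. In D2-MSN-like nuclei neither was called with DESeq2, without the sex covariate or with thinned nuclei. In D1- and D2-MSN-like nuclei both calls were lost without either cocaine library, as was that of Pcsk1 in eccentric MSN-like nuclei without the cocaine female library (1.67), and Scg2 without the saline female library in D2-MSN-like (0.18) and eccentric MSN-like nuclei (0.44).

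A minority of the tested immediate-early transcription factors were called higher in each of the 3 MSN classes. Over all genes tested 0.211% (D1-MSN-like), 0.463% (D2-MSN-like) and 0.174% (eccentric MSN-like) were called higher. Of the regulators of activity-dependent transcription (such as Creb1, Crtc1 and Srf) 0 of 9 were called in each. At such low shares this tells little about the regulators. The largest changes of those regulators were Mef2c in D1-MSN-like (0.25), Srf in D2-MSN-like (-0.17) and Srf in eccentric MSN-like nuclei (0.23). In D1-MSN-like nuclei 2 of 15 tested factors were called, the orphan nuclear receptor Nr4a3 (2.06 ± 0.10 SE on the log2 scale) and Fosl2, an AP-1 subunit (1.23 ± 0.19). In D2-MSN-like nuclei 5 of 14 genes of that list were called: Nr4a3 (1.25 ± 0.12), Egr4 (0.92 ± 0.16), Nr4a1 (0.52 ± 0.13), Junb (0.49 ± 0.12) and Btg2 (2.91 ± 0.62, from 5, 0, 16 and 28 UMIs). Btg2 is listed as an immediate-early gene and is not itself a DNA-binding factor. Eccentric MSN-like nuclei gave 2 of 12, Nr4a3 (1.64 ± 0.17) and Junb (0.81 ± 0.17). Leaving out 1 library at a time, Nr4a3 kept its call in 4 of 4 fits in D2-MSN-like and eccentric MSN-like nuclei and in 3 of 4 in D1-MSN-like nuclei, lost without the cocaine female library (1.77). The calls of Fosl2 and Egr4 were lost without either cocaine library, those of Junb and Nr4a1 in D2-MSN-like nuclei with any 1 library left out and that of Btg2 without any but the saline female library. Junb in eccentric MSN-like nuclei was lost without either female library. DESeq2 called none of these genes but Nr4a3 in D1- and D2-MSN-like nuclei. With nuclei thinned to equal depth no gene at all was called in D2-MSN-like nuclei (Nr4a3 0.65, Nr4a1 0.06). Fosl2 (0.43) was then not called in D1-MSN-like nuclei. In the main fit D2-MSN-like nuclei thus had called effectors and immediate-early factors but no called change of Homer1. With DESeq2 or without the sex covariate only Nr4a3 stayed called in that class. Homer1 itself was higher with cocaine there within each sex (log2 ratios of 0.17 in females and 0.26 in males). Whether its change differed from that of the called genes was not tested.

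Across classes the genes most like each member differed. Likeness was the Pearson correlation of log2(CPM + 1) over the 11 tested classes, each a mean of 4 libraries that all classes share, among 12348 genes, and is a description only. Closest to Homer1 were Ism1 (r = 0.96), Cracdl (0.95) and Tiam2 (0.95), and closest to Arc were Egr4 (0.98), an immediate-early transcription factor, Kcnv1 (0.97), a silent potassium channel subunit, and R3hdm1 (0.96). Closest to Nptx2 were Nsun7 (0.88), Col20a1 (0.85) and Vxn (0.84), all highest in oligodendrocyte precursor-like nuclei. Homer1 and Arc had an r of 0.88 with each other, and Homer1 and Nptx2 an r of 0.26.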

How the data were processed

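UMI counts per gene and nucleus were measured with 10x 3′ v3 chemistry in 4 libraries. The authors deposited whole-number counts, not normalized, made with Cell Ranger 6.1.2 per the file headers; rn7 is the genome build per the submitters' processing notes. Whether intronic reads were counted is not given in the sources used here.

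Barcodes needed 200 genes and no more than 5% mitochondrial UMIs (4 failed), and Scrublet in scanpy 1.11.5 removed the top-scoring 0.8% per 1000 nuclei, 1381 in all (4.97% to 5.81% per library). Counts were scaled to 10000 and log-transformed. Clustering used 2000 variable genes without 39 genes (the 3 members, the lists of other effectors and immediate-early factors, and sex-linked genes) and without mitochondrial genes, then 30 principal components, 15 neighbours and Leiden (leidenalg 0.10.2) at resolution 0.5. Clusters were named from marker lists (74 of 78 markers matched), with score limits set after the data were seen. Raw UMIs were summed per library and class or cluster, and 11 of 13 classes had at least 25 nuclei in every library (50 for clusters) and were tested with edgeR 4.0.16 (quasi-likelihood, TMM scaling, filterByExpr) in R 4.3.3 with sex as a covariate and Benjamini-Hochberg adjustment within the class at 0.05. Each gene has 1 residual degree of freedom, with prior degrees of freedom of 12.0 in D1-MSN-like and 23.0 in eccentric MSN-like nuclei and infinite ones in D2-MSN-like and oligodendrocyte-like nuclei and cluster 2. Levels are raw CPM, and fold changes come from the TMM-scaled fit. Log2 ratios within a sex rest on 1 library each and were not tested. Thinning drew 2000 UMIs per nucleus. Scripts were tested on simulated data. DESeq2 1.42.0, RLE size factors, no filter, no sex covariate, a marker gate, resolution 1.0 and leaving out each library were tried as alternatives.

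The text names the 3 members in every class tested and, from each list and MSN class, every gene called and the gene with the largest change; likeness genes are the 3 with the highest correlation. The members, lists and tests were chosen with earlier results of these data known. Of 76 list genes 75 matched. Promoter windows are from RefSeq (GRCr8), matched by symbol.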

Additional observations from a re-analysis of the deposited data

Results flagged for a closer look

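In 9 of 34 pairs of a gene and a class or cluster that could be tested, the cocaine to saline ratio had opposite signs in females and males. Each sex has 1 library per group, so these differences were not tested. For Arc the male minus the female log2 ratio was 0.89 in D1-MSN-like nuclei (-0.10 in females, 0.80 in males), 1.74 in glutamatergic-like nuclei (-0.36 and 1.38) and 0.19 in cluster 2 (-0.08 and 0.12). For Homer1 it was -0.69 in Pvalb/Pthlh interneuron-like nuclei (0.59 in females, -0.10 in males), -1.04 in glutamatergic-like nuclei (0.85 and -0.19) and -0.55 in oligodendrocyte precursor-like nuclei (0.19 and -0.36). For Nptx2 it was 1.55 in D2-MSN-like nuclei (-0.92 in females, 0.64 in males), 0.87 in glutamatergic-like nuclei (-0.18 and 0.69) and -2.88 in cluster 5 (2.23 and -0.65, from 3 and 33 UMIs in females and 22 and 10 in males). Homer1 in D1-MSN-like, D2-MSN-like and eccentric MSN-like nuclei and in clusters 2, 5 and 12 had the same sign in both sexes.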

How the results depend on the processing

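Over 90 results and 717 alternative values, 534 kept their direction and side of the threshold or moved little, 99 lost and 10 gained a call, 29 reversed and 45 values without a test moved. The cause was not tested for any of them. Homer1 in D1-MSN-like nuclei had a log2 fold change of 0.50 without the sex covariate (no longer called) and 0.38 to 0.62 on leaving out 1 library. Its estimate in eccentric MSN-like nuclei was 0.55 without the sex covariate, 0.55 with DESeq2, 0.56 with RLE factors, 0.52 with doublets kept and 0.58 with thinned nuclei, all uncalled, and 0.38 to 0.75 on leaving out 1 library. The D2- minus D1-MSN-like difference for Homer1 ran from -0.56 to -0.12. Genes called in D1-MSN-like nuclei (35) were 171 without a filter, 0 without the sex covariate, 8 with DESeq2, 95 with the marker gate and 0 to 247 on leaving out 1 library. In D2-MSN-like nuclei (100) they were 1 without the sex covariate, 1 with DESeq2, 0 with thinned nuclei and 4 to 124.

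Reversals were among uncalled estimates. With thinned nuclei Arc gave -0.53 in D2-MSN-like and -0.33 in eccentric MSN-like, Homer2 -0.25 in eccentric MSN-like and Srf 0.077 in D2-MSN-like nuclei. With doublets kept Homer1 gave -0.024 in astrocyte-like, -0.12 in glutamatergic-like and 0.43 in oligodendrocyte precursor-like nuclei, and Nptx2 -0.77 in glutamatergic-like nuclei. The marker gate gave 0.24 for Nptx2 in D2-MSN-like nuclei. On leaving out 1 library, Arc ran from -0.074 to 0.73 (D1-MSN-like), -0.45 to 0.21 (D2- minus D1-MSN-like), -0.20 to 1.63 (cluster 12), -0.33 to 0.37 (cluster 2), -0.0074 to 0.43 (eccentric MSN-like) and -0.037 to 0.97 (glutamatergic-like). Homer1 ran from -0.34 to 0.68 (Pvalb/Pthlh interneuron-like), -0.30 to 0.79 (glutamatergic-like) and -0.44 to 0.20 (oligodendrocyte precursor-like). Nptx2 ran from -0.71 to 0.27 (D2-MSN-like), -1.85 to 0.10 (D2- minus D1-MSN-like), -0.24 to 1.97 (cluster 5), -0.028 to 0.85 (glutamatergic-like) and -0.39 to 0.63 (oligodendrocyte precursor-like). Nptxr ran from -0.95 to 0.10 (eccentric MSN-like) and Srf from -0.37 to 0.047 (D2-MSN-like). The labels number no replicates, and the fit with sex as a covariate is itself the paired one, with 1 saline and 1 cocaine library of each sex; the values without the sex covariate are the unpaired ones.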
